A study of Homo sapiens with 9 samples.

Results

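The genes described here are 9 members of the cytosolic and mitochondrial heat shock families, HSPH1, HSPA4, BAG3, DNAJB1, DNAJA1, HSPB1, HSPD1, HSPE1 and HSPA8, measured on microarrays of LNCaP cells. A gene counted as measured where an Affymetrix probe set was annotated to its symbol and no other, which held for 8 of the 9 genes through 19 probe sets. The brightest of these on average over the 9 arrays stood for its gene. All 4 probe sets of HSPA8, which encodes the constitutive Hsp70 of the cytosol, also carry the symbols of small nucleolar RNA genes, so no value is given for it. The 8 measured genes stand among 19775 genes on the arrays, and all 8 were among the 11865 genes bright enough to be tested.

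Heat shock proteins bind unfolded or newly made proteins and help them fold. In the cytosol, Hsp70 holds a client while it carries ADP. J-domain proteins deliver clients and trigger the hydrolysis of ATP, and nucleotide exchange factors release ADP so that the client can leave. Small heat shock proteins hold unfolding proteins without ATP, and in the mitochondrial matrix a barrel of Hsp60 closed by a lid of Hsp10 encloses proteins while they fold. Many of these genes are driven by heat shock factor 1, which binds heat shock elements made of inverted GAA units when proteins misfold.

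LNCaP is an established prostate cancer line that responds to androgen. In the inhibitor series, cells were left in medium with 10% serum (steady state), or kept without androgen in 5% charcoal-stripped serum for 48 h. The deprived cells were given 100 µM etoposide or 100 µM merbarone for 2 h before 100 nM dihydrotestosterone (DHT) for 16 h, or DHT alone, or neither (vehicle). Etoposide holds topoisomerase II on the DNA it has cut, whereas merbarone blocks the enzyme's catalytic cycle. In the shRNA series, cells carrying an sh-TOP2B or an sh-control vector that also made green fluorescent protein were deprived of androgen, given DHT or vehicle, and sorted for fluorescence. Each of the 9 groups had 1 array of 1 cell line, so a difference between single arrays has no replicate check of its own. An array of bulk RNA also cannot tell less RNA in each cell from fewer cells that hold it.

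Every level below is a log2 value from RMA, and every difference is one of log2 levels. Differences were tested with limma over all 11865 genes, and p-values adjusted by Benjamini-Hochberg had to be under 0.05 to pass. The spread came from how far the DHT effects differed among 3 pairs of DHT and vehicle arrays (inhibitor series, sh-TOP2B and sh-control). Single arrays were assumed to vary like the arrays of those pairs. The 2 series stood apart in RNA quality: signal from the 3′ end of the beta-actin transcript exceeded that from its 5′ end by 0.38 to 0.70 on the inhibitor-series arrays and 2.38 to 3.09 on the shRNA-series arrays. Of 8 measured LNCaP markers 6 were above the array median on all arrays, the exceptions being the androgen-induced KLK3 and KLK2. Of 3 measured leukocyte markers PTPRC and CD14 were below it on all arrays and CD3E was above it on 5 of 9 (up to 6.27). Of 2 measured basal markers KRT14 was below it on all arrays and KRT5 on 8, and of 4 stromal markers COL1A2 and DCN were below and COL1A1 and ACTA2 above. KLK3 stood at 11.02 with DHT and 5.68 with vehicle in the inhibitor series. TOP2B, the targeted gene, stood at 10.01 and 10.09 on the sh-TOP2B arrays with DHT and vehicle, and at 10.87 and 10.54 on the sh-control arrays with DHT and vehicle. Its difference of -0.66 ± 0.12 (SE) did not pass the test (limma adjusted p = 0.0932), so the knockdown is seen in values only.

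The promoter windows of the 9 genes were searched for heat shock element units, since these are the sites that heat shock factors bind. Windows reach from 250 bases before to 50 bases after an annotated start (RefSeq, GRCh38.p14). The search looked on both strands for GAANNTTC and TTCNNGAA, which each read the same on both strands. These overlap where 3 units adjoin, as GAANNTTCNNGAA or TTCNNGAANNTTC. Of all 35116 windows, 13.5% held at least 2 adjoining units and 0.49% held 3. Of the 12 windows of the 9 genes, 6 held 2 adjoining units and 3 held 3. The windows below are those of DNAJB1, DNAJA1, HSPB1 and HSPD1, the measured genes with a match (for HSPD1 and DNAJB1 the window of the second start is shown), and of HSPE1 and HSPH1, which had none and fell with merbarone. They are written 5′ to 3′ on the gene's strand, with matched units in capitals.

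DNAJB1, J-domain protein, chr19:14518348-14518647, minus strand: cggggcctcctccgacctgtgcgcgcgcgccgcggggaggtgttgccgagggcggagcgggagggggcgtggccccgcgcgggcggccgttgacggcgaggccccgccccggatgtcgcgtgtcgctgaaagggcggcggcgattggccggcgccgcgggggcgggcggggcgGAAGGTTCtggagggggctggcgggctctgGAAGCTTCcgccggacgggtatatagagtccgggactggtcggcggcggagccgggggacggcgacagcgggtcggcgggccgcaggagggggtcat
DNAJA1, J-domain protein, chr9:33025023-33025322, plus strand: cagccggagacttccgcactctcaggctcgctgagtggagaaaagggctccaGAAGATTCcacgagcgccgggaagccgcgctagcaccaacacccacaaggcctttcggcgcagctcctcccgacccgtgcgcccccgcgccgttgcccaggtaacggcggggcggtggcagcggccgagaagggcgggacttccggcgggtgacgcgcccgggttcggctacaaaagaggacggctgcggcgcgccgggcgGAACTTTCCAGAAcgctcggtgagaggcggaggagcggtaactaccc
HSPB1, small heat shock protein, chr7:76302423-76302722, plus strand: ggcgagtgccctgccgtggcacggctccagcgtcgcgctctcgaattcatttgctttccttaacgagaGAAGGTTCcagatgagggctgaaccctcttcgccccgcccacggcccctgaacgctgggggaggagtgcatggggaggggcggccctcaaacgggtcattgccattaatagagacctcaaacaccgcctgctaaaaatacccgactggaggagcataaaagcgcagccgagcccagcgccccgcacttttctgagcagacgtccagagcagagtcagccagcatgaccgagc
HSPD1, Hsp60, second start, chr2:197499791-197500090, minus strand: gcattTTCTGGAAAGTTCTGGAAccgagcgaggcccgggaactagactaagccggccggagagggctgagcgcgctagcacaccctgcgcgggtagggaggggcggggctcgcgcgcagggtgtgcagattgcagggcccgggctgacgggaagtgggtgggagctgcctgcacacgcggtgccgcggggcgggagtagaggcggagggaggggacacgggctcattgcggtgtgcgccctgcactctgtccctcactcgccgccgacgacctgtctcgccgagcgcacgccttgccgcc
HSPE1, Hsp10, chr2:197500129-197500428, plus strand: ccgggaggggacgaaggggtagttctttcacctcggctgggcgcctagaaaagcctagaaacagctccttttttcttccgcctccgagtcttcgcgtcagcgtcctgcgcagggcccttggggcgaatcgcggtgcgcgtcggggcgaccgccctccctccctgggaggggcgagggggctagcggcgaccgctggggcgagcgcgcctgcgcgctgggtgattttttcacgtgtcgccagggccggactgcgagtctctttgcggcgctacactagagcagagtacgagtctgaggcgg
HSPH1, Hsp110 exchange factor, chr13:31162339-31162638, minus strand: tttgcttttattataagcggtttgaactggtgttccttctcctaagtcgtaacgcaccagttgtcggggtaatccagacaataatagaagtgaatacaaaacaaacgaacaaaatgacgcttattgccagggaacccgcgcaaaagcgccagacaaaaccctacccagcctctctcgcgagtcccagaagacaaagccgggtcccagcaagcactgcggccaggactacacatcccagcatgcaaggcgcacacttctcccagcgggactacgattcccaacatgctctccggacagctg

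In the DNAJB1 window shown the matches began 77 and 47 bases before the start, and in the HSPB1 window the single match began 182 bases before it. The window of the third DNAJB1 start, not shown, also held 1 match, just after that start. DNAJA1 had 1 pair of units that began 198 bases before the start and a run of 3 units just after it. The HSPD1 window held a run of 4 inverted units whose first match began 245 bases before the second start. HSPD1 and HSPE1 are divergent neighbours, with annotated outer starts at 197500274 and 197500379 on chromosome 2, 105 bases apart. The HSPD1 window with the run ends at 197500090, and the HSPE1 window begins at 197500129. The run thus also lies upstream of HSPE1, just outside its window. No match lay in the windows of HSPE1, HSPH1, HSPA4 and BAG3. A match is a description of letters, and its absence says only that these letters were not in this window.

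**Figure D1:**
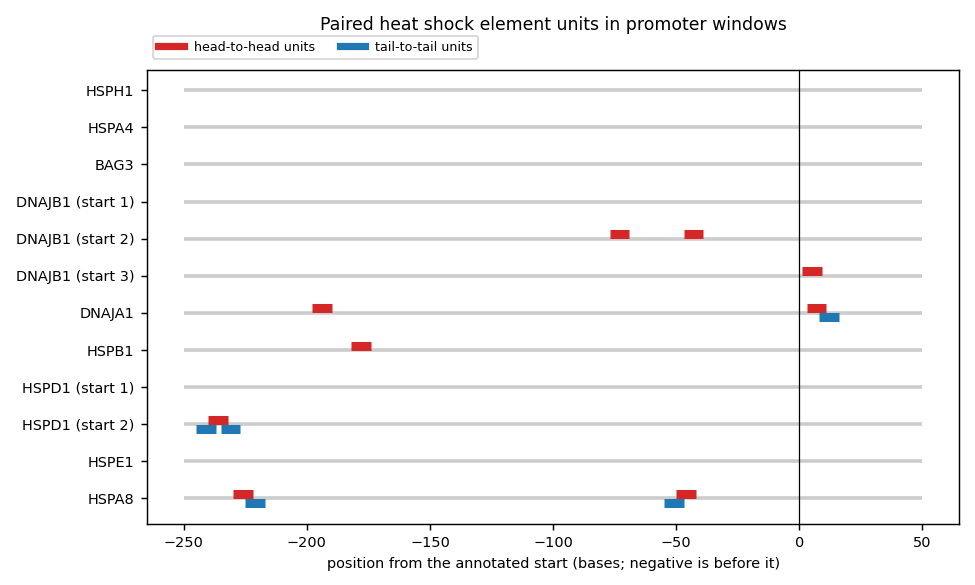
Positions of paired heat shock element units in the 12 promoter windows of the 9 genes, from 250 bases before to 50 bases after each annotated start (x axis, in bases). Red and blue bars mark the 2 arrangements of inverted units; the windows of HSPH1, HSPA4, BAG3 and HSPE1 and the first starts of DNAJB1 and HSPD1 hold none.

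All 8 genes were abundant. Their means over the 9 arrays were 10.03 (DNAJB1) to 13.34 (HSPD1), at or above the 83.0th percentile of gene means, and none fell below the median of any array. As probe sets bind their targets with different strength, these levels do not rank the genes against each other. In the inhibitor series HSPH1 had the widest range of levels (1.49), followed by HSPE1 (1.38), BAG3 (1.03) and DNAJB1 (0.97). HSPD1 (0.15) and HSPA4 (0.18) had the narrowest ranges. Over the 4 shRNA-series arrays no gene had a range above 0.39, the value for HSPB1.

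**Figure D2:**
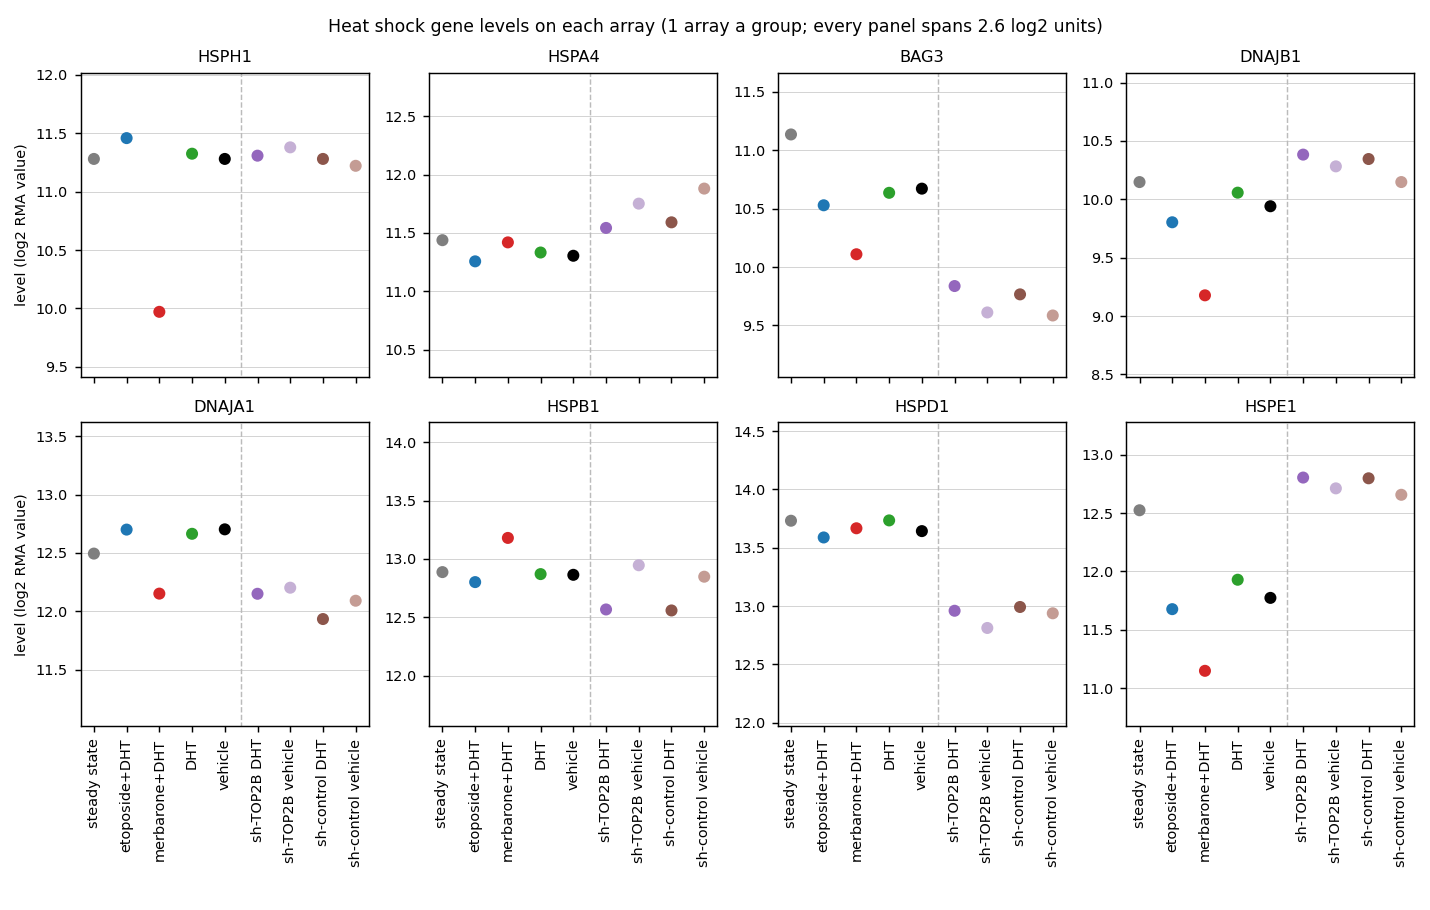
Levels (log2 RMA values, y axis) of the 8 measured genes on each of the 9 arrays (x axis), with the inhibitor series left of the dashed line and the shRNA series right of it; each point is 1 array. HSPH1 stood at 9.97 with merbarone and DHT, below its other 8 values of 11.22 to 11.46, while HSPD1 kept within 0.15 in the inhibitor series.

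Merbarone with DHT was set against DHT alone to ask how inhibition of topoisomerase II alters androgen-stimulated cells. Of the 8 genes, 5 fell and 0 rose, against 16.3% of all genes tested that were lower and 15.4% that were higher (31.7% in either direction). The 5 were HSPH1, DNAJB1, HSPE1, BAG3 and DNAJA1. The median over the 8 genes was -0.52, and over all genes tested it was 0.0. When arrays were centred on 16 control genes, the median of all genes moved by 0.29. The fall of HSPH1, DNAJB1 and HSPE1 still passed, and BAG3 and DNAJA1 no longer did. HSPB1 (0.60) and HSPD1 (0.22) were then higher past the test. In that setting 3293 of the 11865 genes were higher and 1097 lower past the test (37% in either direction). The median over all genes there was 0.29, above the HSPD1 value.

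Among the exchange factors, HSPH1, an Hsp110 protein that frees Hsp70 of ADP, stood at 9.97 with merbarone and DHT, against 11.33 with DHT alone. It stood at 11.46 with etoposide and DHT, 11.28 in steady state and 11.28 with vehicle, so that the merbarone array was the low one and the other 4 lay within 0.18. HSPH1 fell by 1.35 ± 0.11 (SE), or 2.56-fold (limma adjusted p = 0.000522). Of its other 2 probe sets the brighter fell by 1.53. The dimmer lay below the array median with merbarone and fell by at least 1.10.

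HSPA4, the other Hsp110 gene, stood at 11.42 with merbarone and DHT, against 11.33 with DHT alone. The difference of 0.09 ± 0.13 did not pass (95% interval -0.23 to 0.40, limma adjusted p = 0.696). Its 4 probe sets disagreed: 2 others gave 0.12 and 0.14, while the dimmest gave -1.22 (7.73 against 8.95), which passed when it stood for the gene (limma adjusted p = 0.00470). Which transcripts of HSPA4 each probe set binds was not tested.

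BAG3, which couples Hsp70 to small heat shock proteins and to autophagy, stood at 10.11 with merbarone and DHT, against 10.64 with DHT alone. Levels were 11.14 in steady state, 10.53 with etoposide and DHT and 10.67 with vehicle, so the merbarone array was the lowest of the 5 and the steady-state array the highest. BAG3 fell by 0.53 ± 0.15, or 1.44-fold (limma adjusted p = 0.0359). This call was lost in 5 of 10 alternatives, among them centring on control genes (-0.24), no filter on dim genes, no intensity trend, and leaving out the sh-control pair (adjusted p = 0.0713) or the sh-TOP2B pair (adjusted p = 0.0824) in the limma fit. Over the 10, the limma adjusted p ran from 0.00367 to 0.245.

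Of the J-domain genes, DNAJB1, which encodes the main stress-induced Hsp40, stood at 9.18 with merbarone and DHT, against 10.06 with DHT alone. Levels were 10.15 in steady state, 9.80 with etoposide and DHT and 9.94 with vehicle, all above the merbarone array. DNAJB1 fell by 0.88 ± 0.13, or 1.84-fold (limma adjusted p = 0.00413). Its other probe set differed by -0.05 (9.74 against 9.79), so the fall rests on 1 of its 2 probe sets. With their median the difference was -0.46 (limma adjusted p = 0.0509).

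DNAJA1, a farnesylated J-domain protein, stood at 12.15 with merbarone and DHT, against 12.66 with DHT alone, 12.70 with etoposide and DHT, 12.70 with vehicle and 12.49 in steady state. It fell by 0.51 ± 0.09, or 1.43-fold (limma adjusted p = 0.00567). The second probe set was lower by more, at 10.46 against 11.50. With arrays centred on control genes the fall was -0.23 (limma adjusted p = 0.0935).

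HSPB1, the small heat shock protein Hsp27, stood at 13.18 with merbarone and DHT, the highest of the 9 arrays, against 12.87 with DHT alone. The difference of 0.31 ± 0.13 did not pass (95% interval -0.0016 to 0.62, limma adjusted p = 0.122). It passed with arrays centred on control genes (0.60, limma adjusted p = 0.0177) and against a DHT level taken from the fit (0.42, limma adjusted p = 0.0317). It also passed when the inhibitor-series pair was left out of the spread (limma adjusted p = 0.0035), which left the difference of 0.31 as it was.

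Of the mitochondrial pair, HSPE1 passed the test and HSPD1 did not. HSPE1, which encodes the Hsp10 lid, stood at 11.15 with merbarone and DHT, against 11.93 with DHT alone, and was lower there than on the other 8 arrays (11.68 to 12.80). It fell by 0.78 ± 0.08, or 1.72-fold (limma adjusted p = 0.00115). HSPD1, which encodes the Hsp60 barrel, stood at 13.67 with merbarone and DHT, against 13.73 with DHT alone, a difference of -0.07 ± 0.07 that did not pass (95% interval -0.22 to 0.09, limma adjusted p = 0.508). The 2 intervals do not overlap (HSPE1 -0.98 to -0.58), but the difference between the genes was not tested.

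HSPD1 had 5 probe sets. The second brightest stood at 13.23 with merbarone and DHT and at 13.23 with DHT alone. A dim probe set stood at 8.84 with merbarone and DHT, against 5.29 with DHT alone, where it lay below the array median, and was thus at least 3.18 higher. It lay below the median on 6 of the 9 arrays, was the only HSPD1 probe set above 8 on the merbarone array besides the 2 bright ones, and passed when it stood for the gene (limma adjusted p = 0.000529). Where in the locus it binds was not tested.

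**Figure D3:**
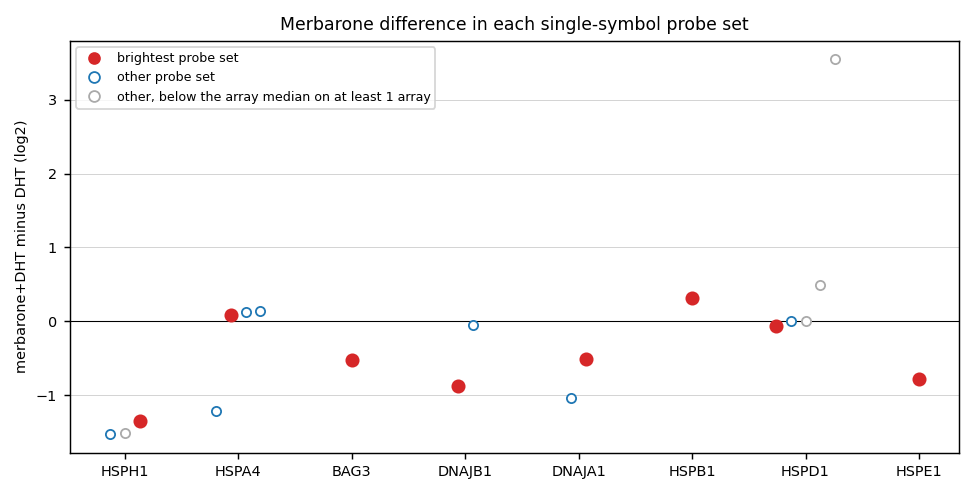
Difference between merbarone with DHT and DHT alone (log2, y axis) in each of the 19 single-symbol probe sets of the 8 genes (x axis). Filled red points are the brightest probe sets. The 3 HSPH1 points lie between -1.53 and -1.35, but the dimmest lay below the array median with merbarone and fell by at least 1.10. Probe sets of HSPA4, DNAJB1 and HSPD1 disagree.

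Set beside the promoter windows, the genes that fell with merbarone lay on both sides. Of the 4 measured genes with a match, DNAJB1 and DNAJA1 fell and HSPB1 and HSPD1 did not pass. Of the 4 without a match in their windows, HSPH1, BAG3 and HSPE1 fell and HSPA4 did not pass. For HSPE1 this depends on the window's edge, as the run counted for HSPD1 lies just beyond it. HSF1, the heat shock factor itself, was higher with merbarone and DHT (8.56) than with DHT alone (7.75), a rise of 0.81 ± 0.22 (limma adjusted p = 0.0329). It was the only one of 3 tested genes for heat shock factors and their binding partner past the test there, and none of the 3 passed for etoposide with DHT against DHT, steady state, DHT or the TOP2B vector.

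Etoposide with DHT was set against DHT alone at the same dose and time. None of the 8 genes passed the limma test, against 1.05% of all genes tested (0.211% higher and 0.834% lower), and 1 of the 8 had an unadjusted p under 0.05. Differences of the 8 were small, from -0.25 (DNAJB1) to 0.13 (HSPH1), with a median of -0.09 and a median over all genes of -0.06. HSPE1, the gene under the unadjusted threshold, stood at 11.68 with etoposide and DHT, against 11.93 with DHT alone (-0.25 ± 0.08, limma adjusted p = 0.234). HSPH1 stood at 11.46 with etoposide and DHT, the highest level of its brightest probe set on any array. Its other probe sets were lower than with DHT alone, by -0.07 and -0.79. The dimmest HSPA4 probe set was also lower, at 8.29 against 8.95.

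Set directly against merbarone with DHT, 4 of the 8 genes were higher with etoposide, against 13.5% of all genes, and 0 were lower, against 19.1% (32.6% in either direction). HSPH1 was higher by 1.49 ± 0.11, or 2.81-fold (limma adjusted p = 0.000496), DNAJB1 by 0.63 ± 0.13, DNAJA1 by 0.55 ± 0.09 and HSPE1 by 0.53 ± 0.08. The call for DNAJB1 was lost without the sh-TOP2B pair (limma adjusted p = 0.0517) with arrays centred on control genes (0.41) and with the median over probe sets (0.21). With that centring, 3 of the 8 were higher and 2 lower, HSPB1 (-0.59) being among the lower. Over all genes 1030 were then higher and 3383 lower (37.2% in either direction). BAG3 (0.42, 95% interval 0.07 to 0.77), HSPB1 (-0.38, -0.69 to -0.07), HSPA4 (-0.16, -0.48 to 0.15) and HSPD1 (-0.08, -0.24 to 0.08) did not pass. This comparison and the comparisons with DHT alone share arrays, so they are not independent of each other.

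**Figure D4:**
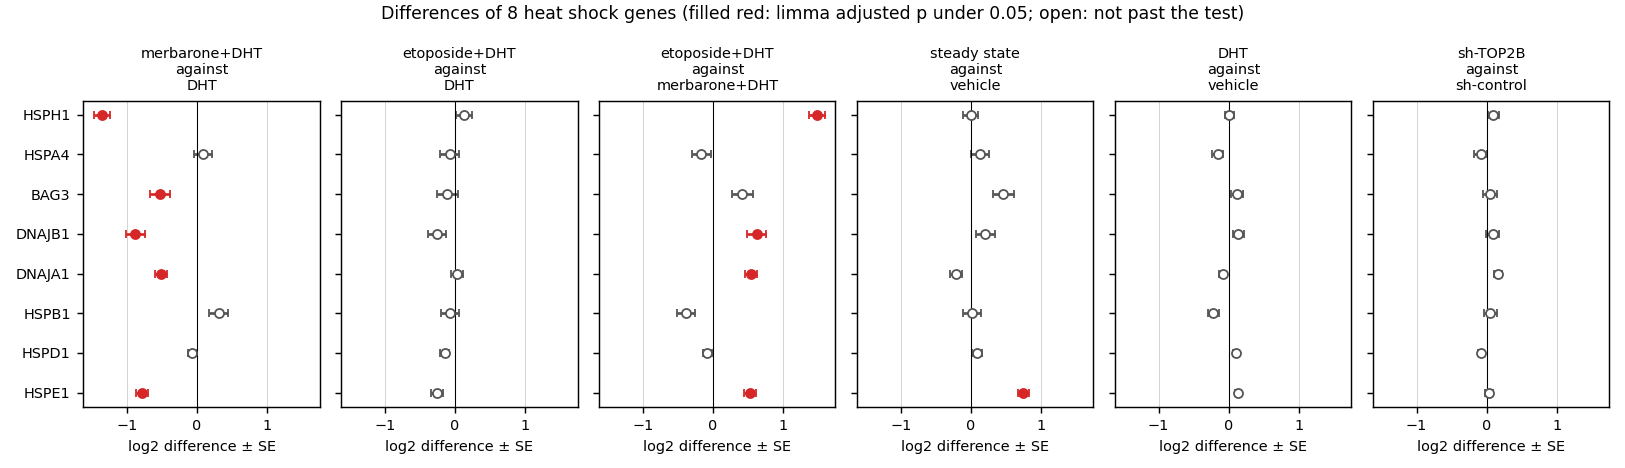
Log2 differences (x axis, points) with their limma SE (bars) for the 8 genes (rows) in 6 comparisons (panels); filled red points passed at a limma adjusted p under 0.05. HSPH1, DNAJB1, HSPE1, BAG3 and DNAJA1 passed downward with merbarone and none with etoposide, DHT or the TOP2B vector.

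Other chaperone genes were described from lists by compartment, to be read against the 15.4% of all genes that rose and the 16.3% that fell with merbarone (31.7% in either direction). Counts centred on control genes are to be read against 3293 of 11865 genes higher and 1097 lower (37%), with a median of 0.29. With quantile normalization again, 1690 genes were higher and 1904 lower (30.3%). With merbarone and DHT against DHT alone, 25 of 32 other cytosolic chaperones and co-chaperones were tested, of which 3 rose and 5 fell, with a median of -0.06 (8 and 3, with 0.22, when centred on control genes). HSPA4L, also an Hsp110 gene, stood at 10.96 with merbarone and DHT, against 8.10 with DHT alone, and rose by 2.86 ± 0.36, or 7.26-fold (limma adjusted p = 0.00212). HSPA1L, an Hsp70 gene whose sequence is close to that of HSPA1A and HSPA1B, fell by 1.45. BAG1, an exchange factor, rose by 1.23, and STIP1, which links Hsp70 to Hsp90, fell by 0.72. Of the 3 Hsp110 genes, HSPH1 fell, HSPA4L rose and HSPA4 did not pass. The 8 calls among 25 cytosolic genes are near the share of all genes called.

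Of 7 tested subunits of TRiC, the chaperonin of the cytosol, 4 fell and 0 rose with merbarone (median -0.28). CCT3 fell by 0.69 and CCT6A by 0.45. Centring on control genes put the median at 0.0080, with 1 subunit lower and 1 higher past the test, and quantile normalization again left 2 lower.

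Of 13 tested mitochondrial chaperones and proteases, 4 rose and 1 fell with merbarone (median 0.20, or 0.48 with 7 rises and 0 falls when centred on control genes). HSPA9, the Hsp70 of the matrix that hands proteins on to Hsp60, stood at 12.76 with merbarone and DHT, against 11.50 with DHT alone, and rose by 1.26 ± 0.09 (limma adjusted p = 0.000413). TIMM44, which tethers HSPA9 to the import channel, rose by 1.20, the iron-sulfur cluster co-chaperone HSCB by 1.08 and the matrix protease LONP1 by 0.87. DNAJC19, chosen after its value was seen, fell by 0.44. The 5 calls among 13 are also near the share of all genes. HSPE1 fell where HSPA9 rose.

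Of 11 tested chaperones of the endoplasmic reticulum, 6 fell and 0 rose with merbarone (median -0.36, or -0.08 centred, with 3 falls). SDF2L1 fell by 1.15, the disulfide isomerase genes PDIA6 by 0.90 and PDIA4 by 0.70, and DNAJC3 by 0.83. With etoposide, PDIA4 alone of the listed genes passed, falling by 0.79 (limma adjusted p = 0.0487), a call that was lost with arrays centred on control genes.

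**Figure D5:**
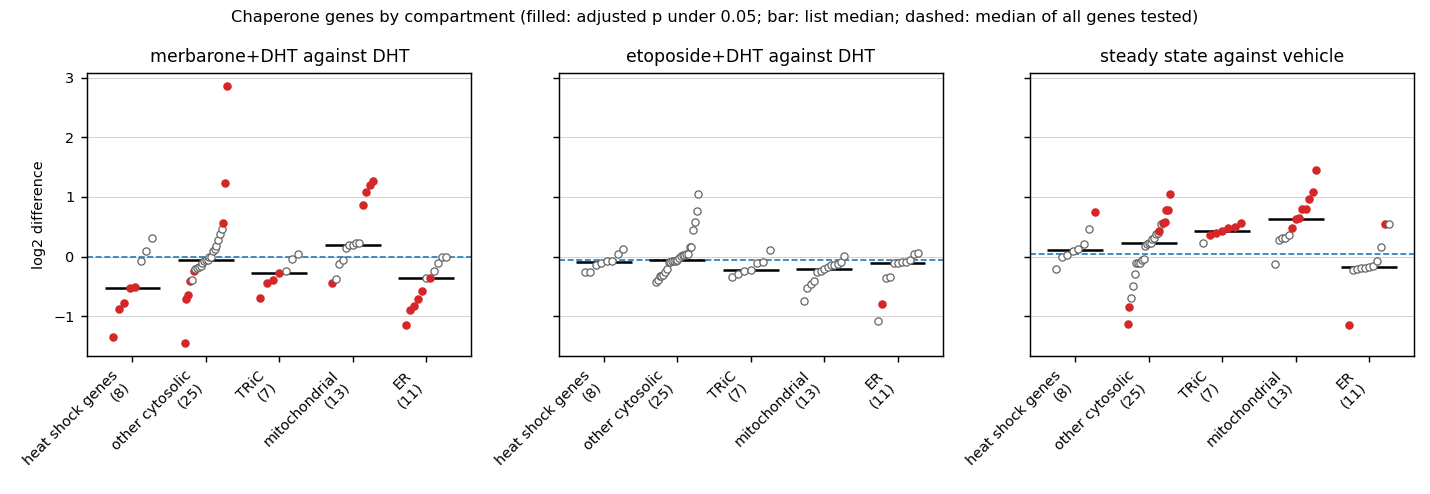
Log2 differences (y axis) of every tested gene on the chaperone lists (x axis, number of genes in brackets) for merbarone with DHT against DHT, etoposide with DHT against DHT, and steady state against vehicle. Filled points passed the limma test, black bars are list medians and the dashed line is the median of all genes tested; with merbarone the mitochondrial list has a median of 0.20 and the 8 heat shock genes -0.52.

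Cells in steady state were set against androgen-deprived cells with vehicle, a comparison in which serum and androgen differ together. HSPE1 was the only one of the 8 genes past the test, against 15.7% of all genes that were higher and 12.4% that were lower (28.1% in either direction). It stood at 12.52 in steady state, against 11.77 with vehicle, and rose by 0.75 ± 0.08, or 1.68-fold (limma adjusted p = 0.00123). HSPD1 stood at 13.73 in steady state and 13.64 with vehicle (0.09 ± 0.07, 95% interval -0.07 to 0.25). BAG3 stood at 11.14 in steady state and 10.67 with vehicle (0.46 ± 0.15, limma adjusted p = 0.0584). HSPH1 had the same deposited value to 4 decimals on both arrays.

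Against DHT alone, HSPE1 was again the only gene past the test among the 8 (13.4% of all genes were higher and 11.4% lower, 24.8% in either direction). It was higher in steady state by 0.60 ± 0.08 (limma adjusted p = 0.00343), and BAG3 was at 0.50 ± 0.15 (limma adjusted p = 0.0506). Both comparisons use the steady-state array. The lists were described for steady state against vehicle, where 15.7% of all genes were higher and 12.4% lower (28.1% in either direction). There 8 of 13 mitochondrial genes rose and 0 fell (median 0.64). They were led by the matrix Hsp90 gene TRAP1 (1.45), TIMM44 (1.08), the protease gene CLPP (0.96) and LONP1 (0.80). Of the 7 TRiC subunits 6 rose (median 0.42; 4 with arrays centred on control genes or quantile-normalized again), among them CCT5 (0.57) and CCT6A (0.50). Of the 25 other cytosolic genes tested 6 rose and 2 fell, near the share of all genes called. CACYBP was at 1.05, FKBP4, a co-chaperone of steroid receptors, at 0.78, DNAJB4 at -1.13 and DNAJB6 at -0.84. Of the 11 genes of the endoplasmic reticulum 1 rose (PDIA4, 0.54) and 1 fell (DNAJB9, -1.15), a smaller share than of all genes.

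DHT against vehicle was measured in 3 pairs, the only replication in the design. None of the 8 genes passed the limma test, against 0.447% of all genes (0.421% higher and 0.0253% lower), and 3 of the 8 (HSPB1, HSPE1 and HSPD1) had an unadjusted p under 0.05. Mean differences over the 3 pairs were between -0.22 and 0.14. HSPE1 was higher with DHT in all 3 pairs, by 0.16 in the inhibitor series, 0.09 in sh-TOP2B cells and 0.14 in sh-control cells (mean 0.13 ± 0.05 SE, limma adjusted p = 0.215). HSPD1 was also higher in all 3, by 0.09, 0.15 and 0.05 (limma adjusted p = 0.231), as was DNAJB1, by 0.12, 0.10 and 0.20 (limma adjusted p = 0.380). DNAJA1 was lower in all 3, by -0.04, -0.05 and -0.16.

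HSPB1 and HSPA4 differed between the series in their values. HSPB1 stood at 12.87 with DHT and 12.86 with vehicle in the inhibitor series, at 12.57 with DHT and 12.95 with vehicle in sh-TOP2B cells, and at 12.56 with DHT and 12.85 with vehicle in sh-control cells. Both shRNA pairs were thus lower with DHT and the inhibitor pair was level. The DHT response of HSPB1 in the inhibitor series was higher than in the shRNA series by 0.34 ± 0.09, which did not pass (limma adjusted p = 0.0657, unadjusted p = 0.00230). HSPA4 differed in the same way by 0.28 ± 0.11 (limma adjusted p = 0.264). None of the 8 genes passed this test, against 2.98% of all genes (1.47% higher and 1.51% lower), and 2 had an unadjusted p under 0.05. Without the inhibitor-series pair, limma called HSPB1 (-0.33) and HSPA4 (-0.25) lower with DHT, in a setting that called 20.6% of all genes (2443, of which 1366 were lower). The actin measure of RNA quality also moved with DHT there, at 2.38 with DHT and 2.69 with vehicle in sh-TOP2B cells, and at 2.67 with DHT and 3.09 with vehicle in sh-control cells. Its part in these values was not tested. No gene on the other chaperone lists passed the limma test for DHT against vehicle or for the sh-TOP2B vector.

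The sh-TOP2B vector was set against the sh-control vector over the vehicle and DHT arrays. None of the 8 genes passed the limma test, against 1.05% of all genes, all of them higher, and 1 of the 8 had an unadjusted p under 0.05. That gene, DNAJA1, stood at 12.15 and 12.20 on the sh-TOP2B arrays with DHT and vehicle, against 11.93 and 12.09 on the sh-control arrays with DHT and vehicle (0.16 ± 0.06, limma adjusted p = 0.643). The other 7 genes differed by -0.09 to 0.09. HSPH1, the gene with the largest fall with merbarone, differed by 0.09 ± 0.08. The DHT response of the 8 genes in sh-TOP2B cells differed from that of the other 2 pairs by -0.24 to 0.15. None passed the limma test of that difference, as did none of all genes (0%), and none of the 8 had an unadjusted p under 0.05.

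Levels also differed between the series, in which handling, sorting and RNA quality cannot be told apart from transfection. Averaged over the DHT and vehicle arrays, BAG3 stood at 9.68 in sorted sh-control cells, against 10.65 in untransfected cells. HSPD1 stood at 12.97 in sh-control cells, against 13.69 in untransfected cells, and DNAJA1 at 12.01, against 12.68. HSPE1 stood at 12.73 in sh-control cells, against 11.85 in untransfected cells, and HSPA4 at 11.74, against 11.32. Over the 8 genes 3 were higher and 5 lower in sh-control cells, with a median of -0.11, and over all genes tested the median was 0.18. These values are of the brightest probe sets, and some others went the other way. Another HSPA4 probe set stood at 8.37 with DHT and 8.40 with vehicle in sh-control cells, against 9.96 and 10.24 in untransfected cells. The second of DNAJB1 stood at 8.88 and 8.97, against 9.79 and 9.51. The dimmest of HSPH1 and dim ones of HSPD1 were higher in sh-control cells. HSPD1 and HSPE1 lay on different sides here in their brightest probe sets. No test was made of these differences.

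The genes whose pattern over the 9 arrays was most like that of HSPH1 were BCDIN3D, PRDX1, SFT2D3, ERBB3 and WDR6. Likeness was the root-mean-square difference in level after each gene was centred within each series, and for these 5 it was 0.06 to 0.09. PRDX1, which encodes a peroxide-reducing enzyme, stood at 11.98 with merbarone and DHT, against 13.39 with DHT alone. ERBB3, a receptor tyrosine kinase gene, stood at 9.98 with merbarone and DHT, against 11.40 with DHT alone. Among the other heat shock genes the nearest to HSPH1 was DNAJB1, at rank 360 with a difference of 0.22. For HSPD1, whose levels hardly moved within a series, the nearest were RPL39, GNAI3, TRAM2-AS1, TEX264 and METTL9 (0.03 to 0.04), and HSPE1 was at rank 7833 (0.31).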

How the data were processed

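The authors deposited log2 expression values of 54675 probe sets for 9 samples, 1 array each. They were made with RMA, per the submitters' processing notes, in a version not given in the sources used here. The method makes the distributions of arrays alike, so a change shared by most genes is removed. Probe sets were named from the platform annotation (41097 with 1 symbol, 1801 with several, 11777 with none), and genes were placed with RefSeq (GRCh38.p14). Genes with a mean below the 40th percentile (5.92) were left out. Tests used limma 3.58.1 under R 4.3.3. The additive fit had 3 background terms, a DHT term and a separate term for each lone array (steady state, etoposide, merbarone), with 2 residual and 4.62 prior degrees of freedom. The fits that set DHT responses against each other had 1 residual degree of freedom. Single arrays were differenced directly, so leaving out a pair changed the spread and not the difference between them. Separate cultures within a group are not named in the labels, so p-values cover only the spread between these samples, which may be technical. The number of arrays limits the precision. The fits were tested on simulated data. A level below its array's median (5.61 to 5.72) is a bound.

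The members, lists and rules were chosen with earlier results of these data known. The rule named the 9 members throughout, up to 4 leading genes past the test from each list, and 5 genes nearest in pattern to HSPH1 and to HSPD1. The lists were other cytosolic chaperones, TRiC, mitochondrial and endoplasmic reticulum chaperones, and heat shock factors. Control genes for centring were 16 housekeeping genes. Alternatives covered scaling, filters, probe sets, the intensity trend, the pairs and the DHT level.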

Additional observations from a re-analysis of the deposited data

How the results depend on the processing

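The count of 5 heat shock genes past the test with merbarone and DHT against DHT alone, all lower, was 3 without an intensity trend. It was 4 to 6 in either direction when 1 pair was left out, and HSPB1 was higher past the test without the inhibitor-series pair. With arrays centred on control genes it was 3 lower and 2 higher, where 1097 of all genes were lower and 3293 higher. The counts of 0 for etoposide with DHT, for sh-TOP2B against sh-control and for the DHT response in sh-TOP2B cells were 0 in every alternative run; over all genes the last of these had 0 calls, with 205 genes at an unadjusted p under 0.05 in limma. For DHT against vehicle the count was 0 to 2 when 1 pair was left out, both calls coming without the inhibitor-series pair, where 2443 of all genes (20.6%) were called and the share of higher calls was 44.1%, against 94.3% with all pairs. For steady state the count of 1 became 2 against vehicle and 2 against DHT with the stricter filter (60th percentile), 2 and 3 with the median over probe sets, and lay between 1 and 2 in both when 1 pair was left out. For the DHT response of the inhibitor series against the shRNA series the count of 0 became 1 with quantile normalization again and 1 with the stricter filter, HSPB1 in both. For etoposide against merbarone the count in either direction lay between 3 and 6 when 1 pair was left out.

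Signs turned in these cases. With merbarone and DHT against DHT, HSPD1 was at 0.22 with centring, 3.32 with the median over probe sets and 3.55 in its dim probe set, and HSPA4 at -1.22 in its dimmest. In steady state HSPD1 was at 1.03 against DHT with the median over probe sets and at 1.26 in the same dim probe set, and HSPA4 at -0.70 against vehicle in another of its probe sets. These HSPD1 values from the dim probe set and the median over probe sets rest on DHT levels below the array median, so they are not exact differences: the rise was at least 3.18 with merbarone and at least 0.90 in steady state. DNAJB1 was at -0.20 for etoposide against merbarone in its second probe set. The cause was not tested. Among single genes and settings other than single probe sets, 544 values kept direction and side of the threshold, 19 gained a call, 11 lost one, 3 turned sign with a call and 23 turned sign without a call on either side.

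Counts over all genes moved with the setting: 53 for DHT against vehicle (1 to 2443), 124 for etoposide with DHT against DHT (0 to 1129), 3756 for merbarone with DHT against DHT (2716 to 5158), 3866 for etoposide against merbarone (2752 to 5284), 3336 for steady state against vehicle (2273 to 4857), 2945 against DHT (1918 to 4499), 124 for sh-TOP2B against sh-control (81 to 287) and 353 for the inhibitor-series DHT response (0 to 603). Centring on control genes moved the share of higher calls with merbarone from 48.5% to 75%, and for etoposide with DHT against DHT from 20.2% to 30.7%. For etoposide against merbarone that share was 41.4%, 23.3% centred and 49.3% with quantile normalization again. Leaving out a pair was not possible for the 2 differences between DHT responses, which would have no residual degree of freedom, nor an shRNA pair for sh-TOP2B against sh-control. The 3 DHT and vehicle pairs stand as blocks in the fit, and the labels carry no replicate numbers for any other pairing.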

Other observations

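Some chaperone genes lay below the filter on dim genes and were not tested where that filter was used. HSPB8, which encodes the small heat shock protein that pairs with BAG3, stood at 5.65 in steady state, 7.49 with etoposide and DHT, 7.93 with merbarone and DHT, 6.79 with DHT and 7.16 with vehicle, and between 3.82 (sh-control with DHT) and 4.20 (sh-TOP2B with vehicle) on the 4 shRNA-series arrays, all below the array median. The merbarone array was the highest of the 9, while BAG3 was lowest there within the inhibitor series. HSPA6, an Hsp70 gene that is silent in most cells without stress, stood between 5.23 and 5.98 on all 9 arrays, near the array medians.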
